A study of Mus musculus with 4 samples.

Results

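The Bcl2 family decides at the mitochondrion whether a T cell lives or dies, and 10 of its genes were followed here between 2 tissues of mice with experimental autoimmune encephalomyelitis (EAE). The genes were Bcl2, Bcl2l1, Mcl1, Bcl2a1b and Bcl2a1d, which code for pro-survival proteins, Bax, which codes for an effector, and Bid, Bcl2l11, Bbc3 and Pmaip1, which code for BH3-only proteins. They were taken by name from the deposited expression tables, and the values of all transcripts of a gene symbol were added up. All 10 were found among the 23990 gene symbols of the tables.

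EAE is a mouse model of multiple sclerosis. Wild type mice (C57BL/6 in the labels, C57BL/6J in the study's methods) were immunized with a myelin peptide (MOG) in complete Freund's adjuvant and given pertussis toxin, and their effector (CD44+) CD4 cells were collected by sorting when disease began. Of the 4 libraries, 2 were made from cells of the spinal cord (CNS) and 2 from cells of pooled draining lymph nodes (dLN). The study's methods state that sorted cells were stimulated with PMA and ionomycin before RNA was taken, while the sample labels name no stimulation. The age of the mice is not given in the sources used here. Nothing says that the libraries of a tissue came from separate mice, so p-values measure only the spread between these libraries, which may be technical.

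As background, the pro-survival proteins hold the effectors Bax and Bak in check. BH3-only proteins report stress, loss of cytokine or strong antigen receptor signals, and they bind pro-survival proteins or engage the effectors directly. Once Bax or Bak opens the outer mitochondrial membrane, cytochrome c leaves, Apaf1 assembles and caspases are cut. In T cells, Bcl2 is kept up by IL-7 receptor signalling, while Bcl2l1 (Bcl-xL) and the Bcl2a1 genes (A1) are switched on by antigen receptor and costimulatory signals, and Bcl2l11 (Bim) is the main killer when a response contracts.

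Values are FPKM, fragments for each kilobase of a transcript relative to all fragments mapped in its library, and are corrected for length, so that genes can be compared. Each difference is a log2 ratio of CNS over dLN on the scale log2(FPKM + 1), with its standard error (SE) and a Benjamini-Hochberg adjusted p from limma over 10634 genes, those whose mean reached 1 FPKM in either tissue. A gene with an adjusted p under 0.05 is called higher or lower in CNS.

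The libraries held an estimated 18.6 M to 21.9 M fragments. The 10 T cell markers summed to 3421 and 3470 FPKM in CNS replicates 1 and 2. In dLN replicates 1 and 2 they summed to 1799 and 1707. Of the CD8 and NK cell markers, Cd8a and Ncr1 were under 1 FPKM in all 4 libraries. Cd8b1 was not, at 3.66 and 4.56 in CNS and 3.38 and 3.38 in dLN. Klrb1c was called higher in CNS, at 2.53 and 3.22 against 0.0442 and 0. The T cell markers went both ways, with 6 called higher in CNS, such as Cd4 at 502 and 531 against 82.0 and 66.7, 3 called lower (Cd44, Cd247 and Cd5) and Cd2 not called. The 16 myeloid markers in the tables summed to 159 and 466 FPKM in CNS and 34.0 and 27.9 in dLN, with 7 of them at 0 in both dLN libraries. The 8 neutrophil markers in the tables summed to 2.59 and 211 against 0.241 and 0.235, so CNS replicate 2 stood apart, and the log2 ratios of all 10 members are given with and without it below. The 6 B cell markers summed to at most 1.97 FPKM, the 4 CD8 and NK cell markers to 6.32 and 9.19 against 3.50 and 3.40, and the 10 neural markers to 133 and 128 against 64.5 and 63.1. The neural sum was made mostly of Cnp, at 82.8 and 77.5 against 8.80 and 5.12, and of Mbp, which was called lower in CNS at 48.6 and 44.5 against 55.5 and 57.7. The Y-linked gene Ddx3y stood at 12.7 and 11.2 FPKM in CNS and was listed at 0 in both dLN libraries, and Xist stood at 0 and 0.0026 against 26.6 and 22.3, so sex and tissue cannot be told apart in any value that follows.

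Of the 10 family genes, all passed the minimum level and 7 were called, 4 higher in CNS (Bbc3, Pmaip1, Bcl2 and Mcl1) and 3 lower (Bid, Bcl2l1 and Bcl2a1b). The tissues differed widely in general. Of all genes tested, 74.9% were called, 37.8% higher and 37.2% lower, so the family's share is near the background and what follows is about which genes moved and how far. At least 2-fold with a call were 5 members, against 39.2% of all genes, and 9 members did not overlap between tissues, against 89.4% of all genes. The median log2 ratio of the 10 was -0.06 and that of all genes tested was 0.05.

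**Figure D1:**
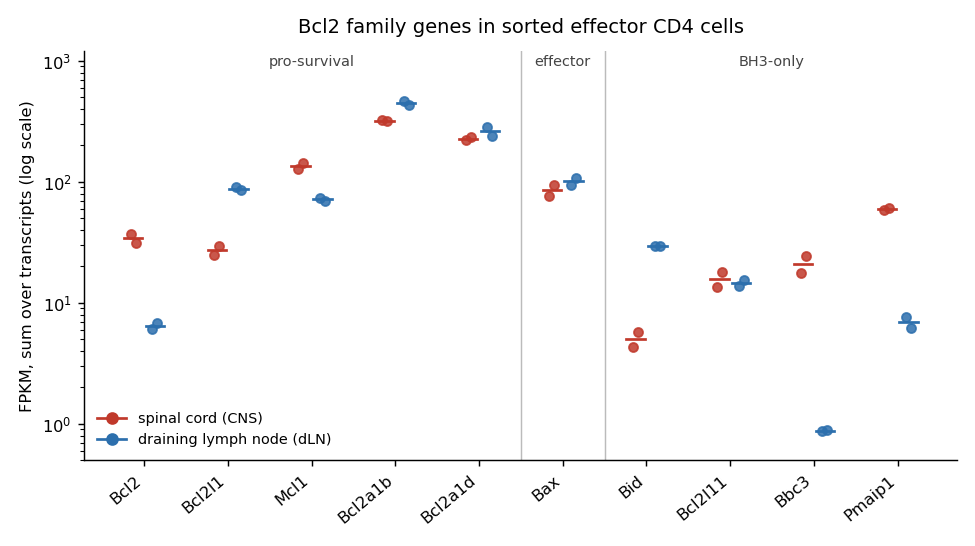
FPKM of the 10 family genes in each library on a log axis, with CNS in red and dLN in blue, points for libraries and bars for the mean of 2. Bbc3 and Pmaip1 sit high in CNS and low in dLN, Bid and Bcl2l1 do the opposite, and the points of Bcl2l11 overlap.

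Bcl2, the founding pro-survival gene (Entrez 12043, mm10 chr1:106538178-106714290, minus strand), stood at 36.9 and 31.5 FPKM in CNS and at 6.08 and 6.82 in dLN. Both CNS values lay far above both dLN values. The means were 34.2 ± 3.81 and 6.45 ± 0.526 (SD, n = 2 each), a 5.30-fold difference, with a log2 ratio of 2.24 (SE 0.12, adjusted p = 0.000136). In bulk RNA, fewer cells of a type and less RNA per cell cannot be told apart, here and in every gene below.

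Bcl2l1, which codes for Bcl-xL (Entrez 12048, chr2:152758732-152831728, minus strand), moved the other way. Its FPKM was 24.8 and 29.6 in CNS and 90.7 and 85.2 in dLN. The means of 27.2 ± 3.38 and 88.0 ± 3.90 differed 3.23-fold, with a log2 ratio of -1.66 (SE 0.11, adjusted p = 0.000248). Bcl2 over Bcl2l1 thus had a ratio of FPKM of 1.49 and 1.06 in CNS and of 0.067 and 0.080 in dLN, with Bcl2 the higher of the pair in CNS and the lower in dLN.

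Mcl1, a short-lived pro-survival protein that T cells need at most stages (Entrez 17210, chr3:95658721-95663178, plus strand), stood at 127 and 143 FPKM in CNS and at 73.9 and 69.1 in dLN. Both CNS libraries were higher, by 1.89-fold between means of 134.8 ± 11.5 and 71.5 ± 3.37, and the log2 ratio was 0.90 (SE 0.097, adjusted p = 0.00091).

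The Bcl2a1 genes are near copies of each other in the mouse, so how reads fall among them bears on their values. Over the coding sequence of 519 bases, Bcl2a1b and Bcl2a1d differed at 6 bases (98.8% identity), Bcl2a1a and Bcl2a1d at 7 (98.7%) and Bcl2a1a and Bcl2a1b at 11 (97.9%), and of all windows of 50 bases 52.3%, 74.0% and 42.8% were identical in the respective pairs. The first 60 coding bases are shown because they hold 6 of the 12 positions at which any of the 3 copies differ, in capitals here. They were read from the GENCODE transcripts of the same build.
Bcl2a1a: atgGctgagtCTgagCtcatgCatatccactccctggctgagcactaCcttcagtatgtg
Bcl2a1b: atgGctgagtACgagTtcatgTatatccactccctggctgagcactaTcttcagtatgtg
Bcl2a1d: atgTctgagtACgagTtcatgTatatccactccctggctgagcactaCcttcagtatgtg

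Both Bcl2a1b and Bcl2a1d were among the most abundant members in either tissue. Bcl2a1b (Entrez 12045, chr9:89199273-89207838, plus strand) stood at 322 and 320 FPKM in CNS and at 462 and 434 in dLN. Both CNS values were lower, 1.40-fold between means of 320.6 ± 1.35 and 448 ± 19.5, with a log2 ratio of -0.48 (SE 0.072, adjusted p = 0.00292). Bcl2a1d (Entrez 12047, chr9:88723288-88731850, minus strand) stood at 220 and 235 in CNS and at 284 and 240 in dLN. The nearest libraries of the tissues were close together, and the log2 ratio of -0.20 (SE 0.11, adjusted p = 0.153) did not pass the threshold. When the 4 Bcl2a1 genes were added up as 1 gene, an alternative chosen after seeing the data, the log2 ratio was -0.35 (adjusted p = 0.0135). How the reads were shared out among the copies was not tested.

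Bax, the effector that is inserted into the mitochondrial membrane (Entrez 12028, chr7:45461695-45466898, minus strand), stood at 76.0 and 94.6 FPKM in CNS and at 94.8 and 107 in dLN. The higher CNS library lay next to the lower dLN library, and the log2 ratio of -0.25 (SE 0.14, adjusted p = 0.160) did not pass. It was -0.090 (adjusted p = 0.512) without CNS replicate 1 and -0.40 (adjusted p = 0.0560) without CNS replicate 2. Bak1, the second effector and one of the other family genes described further on, stood at 52.4 and 53.2 against 33.8 and 31.7. The ratio of Bax over Bak1 was therefore 1.45 and 1.78 in CNS and 2.80 and 3.38 in dLN.

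The BH3-only genes held both the largest rise and the largest fall of the 10. Bbc3 codes for Puma, a target of p53 and of FOXO factors (Entrez 170770, chr7:16309583-16318334, plus strand). Its FPKM was 17.6 and 24.5 in CNS and 0.874 and 0.885 in dLN, with 665 and 937 fragments against 29 and 35. The dLN libraries lay below the minimum of 1 FPKM, so the gene was tested through its CNS level. The means were 21.0 ± 4.89 and 0.879 ± 0.0072, a 23.9-fold difference, with a log2 ratio of 3.53 (SE 0.17, adjusted p = 0.000118).

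Pmaip1 codes for Noxa, which binds Mcl1 and A1 and was named for its induction by a phorbol ester (Entrez 58801, chromosome 18, plus strand). It stood at 58.3 and 61.0 FPKM in CNS and at 7.65 and 6.23 in dLN. The 8.59-fold difference between means of 59.6 ± 1.91 and 6.94 ± 1.0 gave a log2 ratio of 2.94 (SE 0.12, adjusted p = 9.09e-05). Set against its partner, the ratio of Mcl1 over Pmaip1 was 2.17 and 2.34 in CNS and 9.66 and 11.1 in dLN.

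Bid, which caspase-8 cuts to join death receptors to the mitochondrial pathway (Entrez 12122, chr6:120893119-120916820, minus strand), was lower in CNS. Its FPKM was 4.29 and 5.76 in CNS and 29.6 and 29.3 in dLN. The means of 5.02 ± 1.04 and 29.4 ± 0.196 differed 5.86-fold, with a log2 ratio of -2.35 (SE 0.14, adjusted p = 0.000184).

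Bcl2l11, which codes for Bim (Entrez 12125, chr2:128126038-128162547, plus strand), was the only one of the 10 whose tissues overlapped. It stood at 13.6 and 17.9 FPKM in CNS and at 13.8 and 15.5 in dLN. Its log2 ratio was 0.088 (SE 0.15, adjusted p = 0.622), and the sign turned to -0.10 (adjusted p = 0.547) with libraries scaled to the same sum of FPKM and to -0.097 (adjusted p = 0.533) without CNS replicate 2. The ratio of Bcl2 over Bcl2l11 was 2.71 and 1.76 in CNS and 0.441 and 0.439 in dLN.

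With CNS replicate 2 left out, the number of members called stayed at 7. The log2 ratios were then 3.30 for Bbc3, 2.91 for Pmaip1, 2.35 for Bcl2, 0.82 for Mcl1, -0.48 for Bcl2a1b, -1.78 for Bcl2l1 and -2.53 for Bid, with adjusted p-values from 0.00451 to 0.0170. Those of the members not called were -0.25 for Bcl2a1d (adjusted p = 0.209), -0.40 for Bax and -0.097 for Bcl2l11. With 1 CNS library left, the spread in this fit came from the dLN libraries, and the lone CNS library was assumed to vary like them. The summed myeloid and neutrophil markers were also higher in CNS replicate 1 than in dLN, and their part in the results was not tested. Cytokine RNA differed between the tissues as well, with Il2 at 18.2 and 38.8 FPKM in CNS and at 5363 and 6176 in dLN, and the part of stimulation in the family's values was not tested.

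Scaling each library to the same upper quartile moved the median of all genes by 0.12 on the log2 scale, and scaling to the same sum moved it by -0.17. Relative to the median of all genes, the log2 ratios were 2.19 for Bcl2, -1.71 for Bcl2l1, 0.86 for Mcl1, -0.53 for Bcl2a1b, -2.39 for Bid, 3.49 for Bbc3 and 2.89 for Pmaip1. With either scaling these moved by less than their SE. Scaling shifts all genes of a library nearly alike, so this was fixed in advance and is no check of the values. Under the scaling to the same sum, Bax (log2 ratio -0.44, adjusted p = 0.0223) and Bcl2a1d (-0.40, adjusted p = 0.0175) were also called lower.

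**Figure D2:**
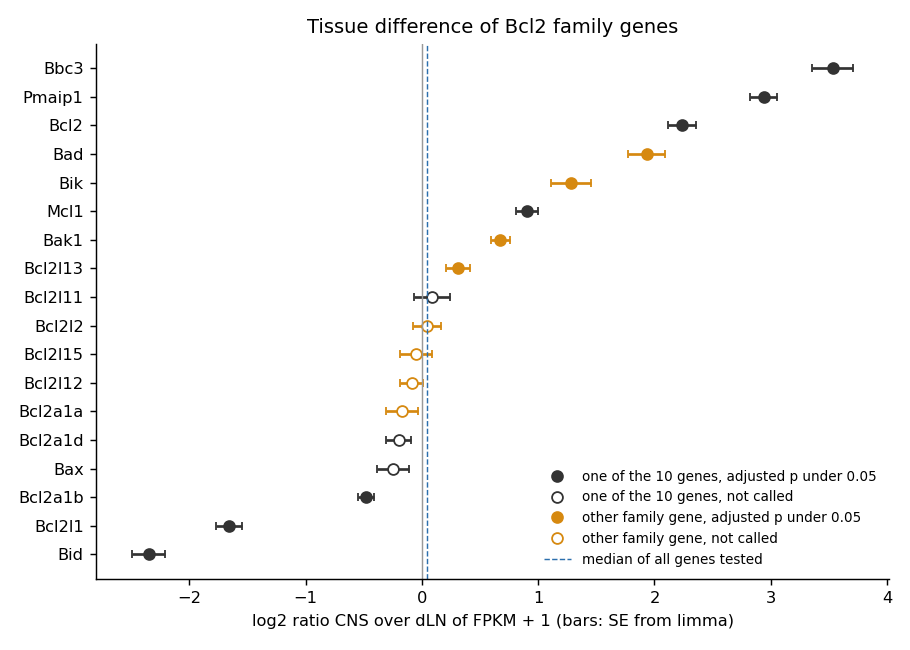
Log2 ratio of CNS over dLN for the 10 genes (dark) and the 8 other family genes tested (orange), with bars for the SE, filled points for an adjusted p under 0.05 and a dashed line at the median of all genes, 0.05. The ratios run from -2.35 for Bid to 3.53 for Bbc3, and no other family gene lies outside that range.

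The order of the levels within a tissue is given for the 10 members only. Of the other family genes, Bak1 had means of 52.8 FPKM in CNS and 32.7 in dLN, and Bcl2a1a of 52.1 and 58.8. Both were above Bcl2 and Bcl2l1 in CNS. In CNS the mean FPKM ran from Bcl2a1b over Bcl2a1d, Mcl1, Bax, Pmaip1, Bcl2, Bcl2l1, Bbc3 and Bcl2l11 down to Bid. Of these neighbours, the libraries of Bbc3 and Bcl2l11 overlapped, and those of the other neighbours did not. In dLN the order was Bcl2a1b, Bcl2a1d, Bax, Bcl2l1, Mcl1, Bid, Bcl2l11, Pmaip1, Bcl2 and Bbc3, and the libraries of Pmaip1 and Bcl2 overlapped. Bcl2 stood at the 80.2 percentile of genes tested in CNS and at the 39.3 percentile in dLN, and Pmaip1 at the 88.6 and the 41.0 percentile. Bid went from the 31.7 percentile in CNS to the 75.5 percentile in dLN, and Bbc3 from the 69.9 to the 9.11 percentile.

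Several members have more than 1 RefSeq transcript in the tables, and these did not always move together. Of the 18 transcripts of the 10 genes, 15 passed the minimum and 11 were called in a fit over 13636 transcripts, of which 66.4% were called. The program's sharing of reads between transcripts that overlap adds an error that the SD of 2 libraries may not show.

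Bcl2l1 had the clearest split. The transcript from the upstream start (NM_009743) stood at 16.1 and 18.5 FPKM in CNS and at 84.7 and 75.3 in dLN, with a log2 ratio of -2.15 (adjusted p = 0.000359). NM_001289716, whose start lies 1011 bases downstream, went the other way, with 7.99 and 9.76 in CNS and 2.03 and 5.09 in dLN and a log2 ratio of 1.19 (adjusted p = 0.0401). The dLN libraries of this transcript differed from each other more than those of CNS did. NM_001289717 shares the downstream start and was lower in CNS, at 0.617 and 1.21 against 3.69 and 4.71 (log2 ratio -1.45, adjusted p = 0.0052), so the split was between transcripts and not between starts alone. NM_001289739 was at most 0.260 FPKM in any library. The upstream transcript made up 65.0% and 62.5% of the gene's FPKM in CNS and 93.4% and 88.4% in dLN.

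The 250 bases before the upstream start of Bcl2l1 are shown because the transcript from that start held most of the gene's FPKM and was lower in CNS. They lie at chr2:152831729-152831978 on the minus strand (RefSeq, GRCm38.p6), outside any annotated exon, and hold none of the 4 motifs searched (given with the next promoters).
Bcl2l1 upstream start: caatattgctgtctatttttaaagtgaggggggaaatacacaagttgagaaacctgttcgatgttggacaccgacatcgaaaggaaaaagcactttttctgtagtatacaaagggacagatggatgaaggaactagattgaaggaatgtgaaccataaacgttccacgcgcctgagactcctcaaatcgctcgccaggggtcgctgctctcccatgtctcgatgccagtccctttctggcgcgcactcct

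Bcl2 has a long and a short transcript. The long one (NM_009741) stood at 33.0 and 26.8 FPKM in CNS and at 4.66 and 4.94 in dLN (log2 ratio 2.41, adjusted p = 0.000392). The short one (NM_177410) stood at 3.95 and 4.69 against 1.42 and 1.88 (1.01, adjusted p = 0.00657). Both were higher in CNS, and the long transcript held 89.3% and 85.1% of the gene's FPKM in CNS and 76.7% and 72.4% in dLN.

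Bcl2l11, whose sum was not called, had a call in 1 of its transcripts. NM_207680, which codes for the extra-long form BimEL, stood at 7.40 and 9.72 FPKM in CNS and at 5.48 and 7.22 in dLN (log2 ratio 0.38, adjusted p = 0.147). NM_207681, which codes for BimL and is 168 bases (56 codons) shorter, stood at 3.31 and 3.81 against 6.32 and 5.20 (-0.57, adjusted p = 0.0259). The ratio of the first over the second was 2.24 and 2.55 in CNS and 0.867 and 1.39 in dLN. NM_009754, which codes for the short form BimS and is 258 bases shorter than the first, was at most 0.760 FPKM.

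**Figure D3:**
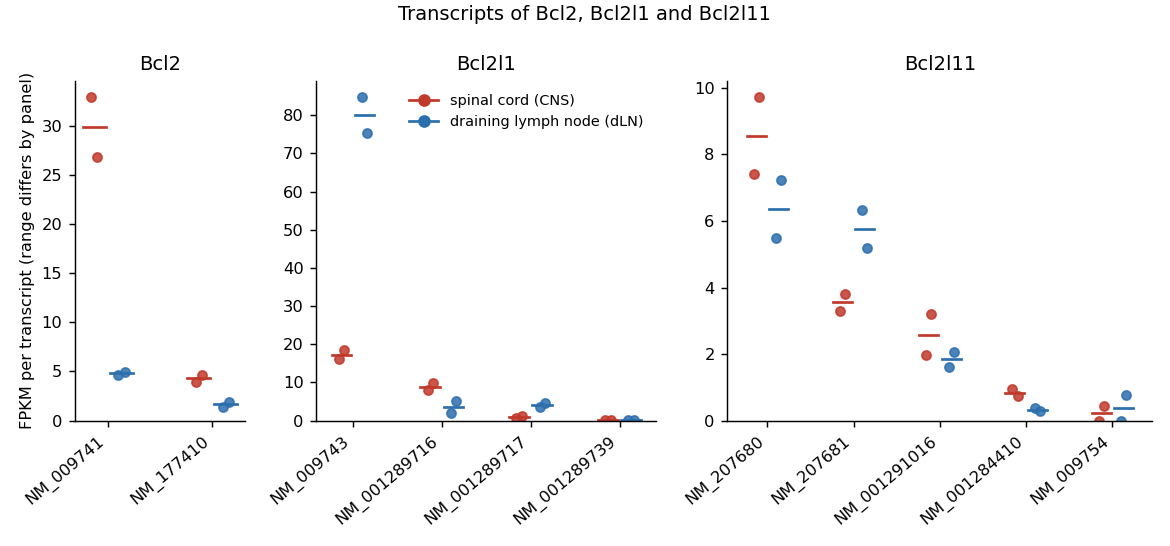
FPKM of each RefSeq transcript of Bcl2, Bcl2l1 and Bcl2l11 per library on linear axes from 0, with CNS in red, dLN in blue and bars for means. In Bcl2l1, NM_009743 stands between 75.3 and 84.7 in dLN and under 20 in CNS, while NM_001289716 is higher in CNS.

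Promoter windows of 250 bases before a RefSeq start were found for 9 of the 10 genes, all but Pmaip1. They were searched on both strands for the FOXO motif GTAAACA, the AP-1 motif TGANTCA, the CRE motif TGACGTCA and the TATA motif TATAAA, which do not contain each other. Of all 32851 windows of this length, 3.17%, 6.75%, 1.55% and 12.4% hold them. These shares are for single windows, while Bcl2l1, Bcl2l11 and Bbc3 had more than 1 window each. The near copies Bcl2a1b and Bcl2a1d had 1 AP-1 match each, in windows that overlap annotated exons. Bcl2l11 and Bbc3 had 1 FOXO match each. These 2 FOXO windows are shown because both genes are known FOXO targets and code for BH3-only proteins, yet Bbc3 was called higher and Bcl2l11 was not called. Capitals mark the match, which is a description of letters only. The Bcl2l11 window lies at chr2:128125788-128126037 on the plus strand, before the start of 4 of its transcripts. The Bbc3 window lies at chr7:16310011-16310260 on the plus strand, before a RefSeq start downstream of the one in the deposited tables, whose own window had no match.
Bcl2l11: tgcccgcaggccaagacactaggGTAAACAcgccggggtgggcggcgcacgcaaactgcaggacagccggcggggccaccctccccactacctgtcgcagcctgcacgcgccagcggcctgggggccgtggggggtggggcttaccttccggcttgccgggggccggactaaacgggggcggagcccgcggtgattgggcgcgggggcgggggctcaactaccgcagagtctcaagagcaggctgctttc
Bbc3: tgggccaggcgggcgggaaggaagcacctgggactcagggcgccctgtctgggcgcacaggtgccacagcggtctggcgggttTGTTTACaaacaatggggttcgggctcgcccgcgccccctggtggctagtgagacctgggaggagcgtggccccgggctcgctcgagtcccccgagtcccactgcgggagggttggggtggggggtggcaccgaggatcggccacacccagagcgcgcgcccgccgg

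To describe the members together, FPKM was added up over the 5 pro-survival genes and over the 4 BH3-only genes among them. The pro-survival sum was 730 and 759 in CNS and 916 and 835 in dLN. The BH3-only sum was 93.7 and 109 in CNS and 51.9 and 51.9 in dLN. Over these genes the summed pro-survival FPKM was thus lower in CNS and the summed BH3-only FPKM higher. The ratio of the sums was 7.78 and 6.95 in CNS and 17.7 and 16.1 in dLN. The mean log2 ratio of the sums was lower in CNS by a difference of -1.20, for which no test was made. An exact permutation test of 2 against 2 libraries cannot go below a two-sided p of 0.333.

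This ratio rested on a few genes. Without Pmaip1 the difference was -0.11, and without Bbc3 it was -0.89 (both chosen after seeing the data). Without Bcl2a1b and Bcl2a1d the difference was -0.72. The pro-survival sum was then 188 and 204 in CNS against 171 and 161 in dLN, so its direction turned. Without Pmaip1 the BH3-only sum was 35.4 and 48.1 in CNS against 44.2 and 45.7 in dLN. The ratio compares sums of RNA levels and holds nothing of the amounts or binding of the proteins.

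Bcl2a1b and Bcl2a1d together held 74.2% and 73.1% of the summed FPKM of the pro-survival members in CNS and 81.4% and 80.7% in dLN. Mcl1 held 17.4% and 18.8% in CNS and 8.06% and 8.28% in dLN, and Bcl2 5.06% and 4.15% against 0.663% and 0.817%. Bcl2l1 held 3.40% and 3.90% in CNS and 9.90% and 10.2% in dLN. Among the BH3-only members the leading one differed between tissues. Pmaip1 made up 62.2% and 55.9% of their FPKM in CNS and 14.7% and 12% in dLN. Bid made up 4.57% and 5.28% in CNS and 57.0% and 56.4% in dLN. Bbc3 made up 18.7% and 22.4% against 1.69% and 1.70%, and Bcl2l11 14.5% and 16.4% against 26.6% and 29.9%.

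**Figure D4:**
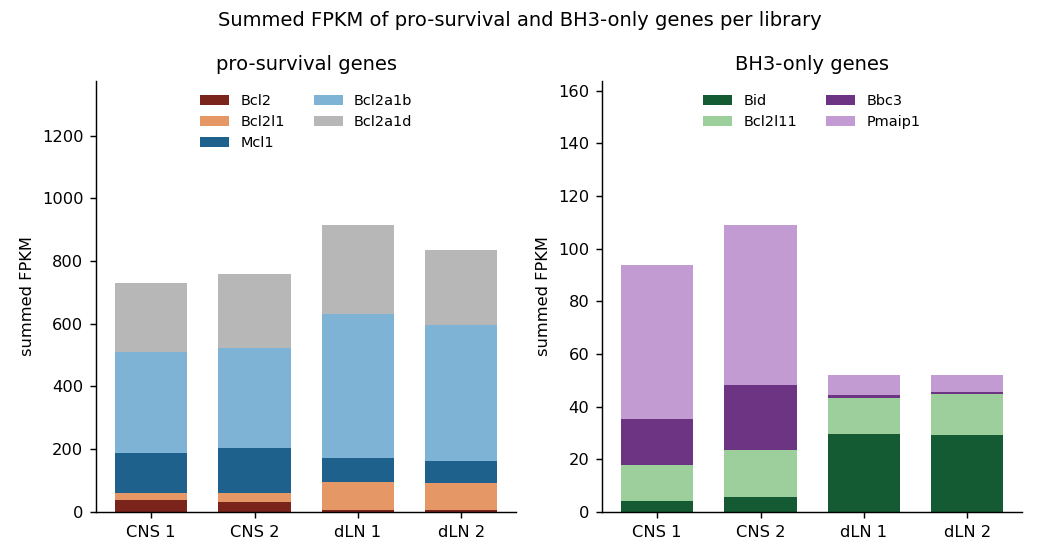
Summed FPKM of the 5 pro-survival genes (left) and the 4 BH3-only genes (right) in each library, stacked by gene, with axes from 0 and different ranges. Pmaip1 is the widest band of the BH3-only sum in CNS and Bid in dLN.

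The rest of the family was also measured. Of 14 other family genes, 8 passed the minimum, of which 4 were called higher in CNS and the other 4 were not called. The share called was 50% against 74.9% of all genes tested, and the median log2 ratio 0.18 against 0.05. Bad, a BH3-only gene tied to growth factor signals, stood at 14.2 and 17.2 FPKM in CNS and at 3.87 and 2.88 in dLN, with a log2 ratio of 1.93 (adjusted p = 0.000421). Bik, another BH3-only gene, stood at 9.04 and 12.2 against 4.14 and 3.34 (1.28, adjusted p = 0.00203). Bak1 had a log2 ratio of 0.67 (adjusted p = 0.00144). Bcl2l13 stood at 8.73 and 8.71 against 7.29 and 6.39 (0.31, adjusted p = 0.0403), a call that was lost without any 1 of the 4 libraries (adjusted p from 0.0590 to 0.201).

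Bcl2a1a, Bcl2l2, Bcl2l12 and Bcl2l15 were not called, with log2 ratios of -0.17, 0.04, -0.09 and -0.05, of which those of Bcl2l2, Bcl2l12 and Bcl2l15 changed sign under another scaling. Bmf, Hrk, Bok, Bcl2l10, Bcl2l14 and Bcl2a1c lay below the minimum. BH3-only genes called were thus Bbc3, Pmaip1, Bad and Bik on the higher side and Bid on the lower.

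Downstream of the mitochondrion, 20 genes were listed and tested, of which 9 were higher in CNS, 5 lower and 6 not called. The share called was 70% against 74.9% of all genes tested, near the background, and the median log2 ratio was 0.25 against 0.05. Apaf1, the scaffold of the apoptosome, stood at 15.5 and 13.3 FPKM in CNS and at 5.62 and 3.72 in dLN (log2 ratio 1.46, adjusted p = 0.00179), and Casp9, the caspase it activates, at 4.36 and 3.93 against 1.09 and 0.779 (1.42, adjusted p = 0.000729). Neither overlapped between tissues, as was so for 89.4% of all genes tested. The dLN mean of Casp9 was 0.934 FPKM, below the minimum of 1, so this gene was tested through its CNS level. On the lower side were Endog, a mitochondrial nuclease, at 2.44 and 2.20 against 4.47 and 4.43 (-0.72, adjusted p = 0.00287), Cycs, cytochrome c itself, at 55.8 and 48.7 against 83.9 and 83.8 (-0.68, adjusted p = 0.00253), and Birc3, an inhibitor of apoptosis protein, at 28.1 and 30.6 against 41.5 and 43.0 (-0.51, adjusted p = 0.00472).

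Of 14 genes of the death receptor pathway, 4 were higher in CNS, 4 lower and 6 not called. That made 57.1% called against 74.9% of all genes tested, with a median log2 ratio of -0.02 against 0.05. Tnfsf10, the ligand Trail, stood at 25.7 and 22.4 FPKM in CNS and at 4.32 and 2.82 in dLN (log2 ratio 2.47, adjusted p = 0.000326), while its receptor Tnfrsf10b stood at 0.969 and 1.29 against 8.31 and 8.36 (-2.14, adjusted p = 0.000164). This ligand and its receptor thus moved in opposite directions. Fas and its ligand did not, with log2 ratios of -0.69 for Fas (adjusted p = 0.00486) and -0.36 for Fasl (adjusted p = 0.0629, not called). Tnf stood at 95.4 and 129 against 589 and 745 (-2.57, adjusted p = 0.000304), and its receptor Tnfrsf1a at 21.0 and 24.5 against 9.76 and 7.72 (1.29, adjusted p = 0.00106). Cflar, which codes for the caspase-8 inhibitor c-Flip, stood at 24.3 and 27.5 against 119 and 125 (-2.19, adjusted p = 9.78e-05). Ripk1, a kinase of the TNF receptor complex, had a log2 ratio of 0.56 (adjusted p = 0.00363). Caspase-8, which cuts Bid, had 42.1 and 39.9 FPKM (Casp8) against 34.2 and 24.2, and its log2 ratio of 0.49 did not pass (adjusted p = 0.0514).

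Of 26 listed genes that regulate the members, 25 were tested, and 12 were higher in CNS, 10 lower and 3 not called. Of those tested 88% were called, against 74.9% of all genes, and the median log2 ratio was 0.38 against 0.05. Il7r, the receptor chain whose signal keeps Bcl2 up, stood at 181 and 148 FPKM in CNS and at 11.9 and 9.46 in dLN, a log2 ratio of 3.82 (adjusted p = 9.15e-05). Foxo3, a factor that acts on Bcl2l11 and Bbc3, stood at 6.72 and 7.40 against 2.59 and 3.06 (1.08, adjusted p = 0.000975). Rel, the NF-kappaB subunit that acts on Bcl2l1 and Bcl2a1, stood at 10.4 and 14.9 against 52.2 and 61.7 (-2.10, adjusted p = 0.000551). Trp53 itself, which codes for p53, stood at 47.6 and 53.8 against 58.9 and 48.9 and was not called (-0.08, adjusted p = 0.572). Among p53 targets on the list, Ccng1 stood at 54.7 and 45.6 against 27.1 and 23.7 (0.95, adjusted p = 0.00198). Perp went the opposite way, at 1.64 and 1.62 against 22.8 and 19.4 (-3.07, adjusted p = 8.98e-05). Listed with them, Trp53inp1 (-1.86), Aen (-1.81), Mdm2 (-0.67) and Sesn1 (-0.47) were also called lower. Cdkn1a was not called (0.42, adjusted p = 0.218), so Ccng1 alone was called higher among these. Bbc3, a p53 target and a family member, is not on this list and was called higher (3.53). Hspa9, a mitochondrial chaperone, stood at 44.6 and 47.4 against 322 and 343 (-2.83, adjusted p = 8.12e-05).

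The genes with the pattern most like that of Bbc3 and of Bid were taken by the smallest root mean square distance of their centred log2(FPKM + 1) values over the 4 libraries, among 6410 genes that reached a mean of 10 FPKM in a tissue. Nearest to Bbc3 were Oasl2 (distance 0.033), Klrb1b (0.063) and Isg15 (0.068), of which Oasl2 and Isg15 belong to the interferon response. Isg15 stood at 108 and 151 FPKM in CNS and at 9.69 and 8.95 in dLN, and CNS replicate 2 was the higher one, as in Bbc3. Near to Bid were Wdr46 (0.052) and Tmem201 (0.055). Wdr46 stood at 10.4 and 13.8 against 61.2 and 67.0. With 4 libraries in 2 tissues, likeness says little more than that the size of the tissue difference was close.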

How the data were processed

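RNA of effector CD4 cells was sequenced in 2 CNS and 2 dLN libraries. The authors trimmed the reads, mapped them to mouse build mm10 and deposited the FPKM of 33819 RefSeq transcripts, 1 table for each tissue. The aligner and the FPKM program are not given in the sources used here. Since 1 header cell of the CNS table names both libraries, the first value column was taken as replicate 1 and the second as replicate 2. Summing by symbol gave 23990 symbols, without the 565 transcripts that had none (0.142% to 0.446% of the FPKM). Starts were raised by 1, since the tables count from 0.

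Genes that reached a mean of 1 FPKM in either tissue, the minimum of the study's methods, were compared between tissues with limma 3.58.1 in R 4.3.3 (lmFit, eBayes with trend) on log2(FPKM + 1), and transcripts likewise. The gene fit was also run on simulated log2 values in which few genes were changed. Most genes tested were called here, so that run is no check of these calls. Low FPKM values fall on steps of 1 fragment, which gave the depth. The depth was chosen to make most of them whole, and 86.2% to 89.1% came out whole within 0.1 of a fragment. That share is therefore no separate check of the depth. Promoters came from RefSeq, and exons, strand and coding sequences from GENCODE. Other steps used Python 3.11.15 (numpy 2.4.6, pandas 2.3.3, matplotlib 3.10.9).

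The 10 members and all gene lists were chosen with earlier results of these data known. Named are the 10 members, the other family genes, from each of the 3 pathway lists the 3 largest called changes in each direction, and the 3 genes nearest in pattern to the member with the largest rise and to the one with the largest fall. Some genes that this rule names are not reported here. Trp53, Trp53inp1, Aen, Mdm2, Sesn1, Cdkn1a, Casp8, Fas, Fasl, Il2, the markers and the sex-linked genes fall outside this rule. They were named after their values were seen and are left out of the counts of named genes below. Alternatives covered the pseudocount (0.1), 2 filters, 2 scalings, the highest transcript, the variance prior, a replicate block, leaving out each library, the genes summed, and the Bcl2a1 copies as 1 gene.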

Additional observations from a re-analysis of the deposited data

How the results depend on the processing

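Each value was recomputed with 1 choice changed at a time. The fit of the Bcl2a1 genes added up is counted for both Bcl2a1b and Bcl2a1d, though it is the value of a sum. It kept the call of Bcl2a1b and is among the gained calls below for Bcl2a1d. Of 121 such values of the 10 members, 116 kept sign and call, none lost a call, 3 gained one (given in the report for Bax and Bcl2a1d) and 2 changed sign, both for Bcl2l11 (-0.10 with libraries scaled to the same sum, and from -0.097 to 0.27 with 1 library left out). Among 310 values of the other named genes, 296 kept both, 7 lost a call (all Bcl2l13), 1 gained one (Bcl2a1a, same sum, adjusted p = 0.0489) and 6 changed sign, none of them called: Bcl2l2 (-0.10 with the same sum, from -0.046 to 0.13 with 1 library left out), Bcl2l12 (0.028 with the same upper quartile) and Bcl2l15 (0.025 with the same upper quartile, 0.022 with the highest transcript, from -0.11 to 0.0084 with 1 library left out). Bbc3, Casp9 and Tnfrsf10b could not be tested with at least 1 FPKM asked of all 4 libraries. The causes were not tested.

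The number of genes called ran from 6596 (without dLN replicate 2) to 8477 (no filter). Members called numbered 6 to 9 and genes of the pathway lists 40 to 49, with 48 in the main fit. The difference in the log2 ratio of summed FPKM, -1.20, was -1.36 without Mcl1, -0.72 without Bcl2a1b and Bcl2a1d, -1.34 with the other family genes added, -0.11 without Pmaip1 and -0.89 without Bbc3, and ran from -1.28 to -1.11 with 1 library left out.

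Libraries share the replicate numbers 1 and 2 across tissues, but nothing ties them. Ddx3y stood at 12.7 and 11.2 FPKM in CNS and at 0 in both dLN libraries. Xist stood at 0 and 0.0026 against 26.6 and 22.3. The libraries of the 2 tissues thus came from mice of different sex and were not paired by mouse. Over all genes tested, the difference between replicates 1 and 2 in CNS and that in dLN had a correlation of 0.0933. Fitted with a block for the replicate number, 7828 genes and 7 members were called, and only the call of Bcl2l13 was lost among the genes named (adjusted p = 0.0512). With 2 libraries a tissue, small differences such as those of Bax and Bcl2a1d could not be settled.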
